A study of Mus musculus with 175 samples.

Results

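The genes of MHC class I antigen presentation were followed through single progenitor cells of the mouse fetal liver at E14.5. The 8 genes were chosen by symbol. They are B2m, H2-K1, H2-D1, H2-T23, Tap1, Tap2, Tapbp and Nlrc5, out of 49585 mouse features in the count table, of which 22262 had a read. All cells came from embryos of C57BL/6 mice crossed with ICR that carried a Runx1 reporter, named P2-GFP::P2-hCD4/+ in the genotype label and P1-GFP::P2-hCD4/+ in the protocol. In these mice human CD4 (hCD4) on the cell surface reports the P2 promoter of Runx1, a transcription factor of blood development. Cells without hCD4 (P2-) and with hCD4 (P2+) were sorted singly from megakaryocyte-erythroid progenitors (MEPs) and common myeloid progenitors (CMPs), which were separated by CD34 after gating on cKit, CD150 and absence of CD41, as the study describes it. For the CMPs the label words are low and high, which were taken as P2- and P2+. After cell filters there remained 56 P2- and 47 P2+ cells of the MEPs, and 27 P2- and 42 P2+ cells of the CMPs, 172 in all.

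The livers of 2 litters were pooled before the sort, so each population is 1 sample, its cells are not replicates, and differences are given with intervals for counting error and no p-value. Reads on mouse genes were between 295064 and 1540631 per cell, and the median ERCC spike-in share of a population was between 1.46% and 2.48%. Levels are CPM, the summed counts of a population scaled to 1000000 of its reads on mouse genes. Where 4 values are given in a row, they are for the MEPs, P2- first, and then for the CMPs, again P2- first. A lower level in a population can mean fewer cells with the transcript or less of it per cell, so the share of cells with a read is given as well. Cd34, whose product separated the CMPs from the MEPs, was at 0.0327, 13.05, 274.3 and 541 CPM, and Klf1, an erythroid transcription factor that was no part of the sort, at 478, 243.5, 87.4 and 4.59 CPM. Transcripts of hCD4 were not analysed here, so the P2- and P2+ labels have no check by their own reporter. One P2- CMP, 1 cell of 27, has a subtype label of MEP. Of 9 macrophage markers, 8 or 9 had 0 reads in each population, and the markers' summed level was between 0 and 1.39 CPM.

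MHC class I molecules display peptides from inside the cell on its surface. A heavy chain, encoded in mice by the H2 genes, pairs with the invariant light chain beta-2 microglobulin (B2m). Peptides cut by the proteasome are pumped into the endoplasmic reticulum by the transporter TAP, and tapasin (Tapbp) holds the empty class I molecule to TAP while it is loaded. Interferons and NF-kappaB act on the promoters of these genes, and Nlrc5 is the class I transactivator, which works through the X and Y boxes of those promoters. Red cells of the mouse lose most of these molecules as they mature, and nucleated blood progenitors carry them.

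B2m lies on chromosome 2 (GRCm38, chr2:122147686-122153083, plus strand). Nlrc5 lies on chromosome 8 (chr8:94434356-94527272, plus strand). The other 6 genes lie in the MHC of chromosome 17, Tapbp at chr17:33915899-33929292 (plus), H2-K1 at chr17:33996017-34000347 (minus), Tap1 at chr17:34187553-34197225 (plus), Tap2 at chr17:34203527-34216321 (plus), H2-D1 at chr17:35262730-35267499 (plus) and H2-T23 at chr17:36029773-36032855 (minus). The count covers all annotated exons, UTRs included, without regard to strand. Exons of other genes overlap 18.5% of the Tap2 exon bases, 29.02% of those of Tapbp, 3.87% of those of Tap1 and 0.918% of those of Nlrc5, so these counts are uncertain to that extent, and no exon of another gene overlaps those of B2m, H2-K1, H2-D1 or H2-T23. Reads shared with near-identical H2 genes were not counted, and the ICR alleles can differ from the reference. The effect of either on the H2 counts was not tested.

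The stretch before the start site is shown for B2m, the light chain, without the base next to the RefSeq start, and for H2-K1, the classical heavy chain whose pooled level differed more between the populations than that of H2-D1. Sequences are from the RefSeq promoter table, GRCm38.p6, in the direction of transcription, and 6 of the 8 genes were found in it. Matches are in capitals. They are GAAANNGAA, the core of an interferon response element, GGGATTCCC, an NF-kappaB site, TGACGC, the X2 or CRE core, and CCAAT, the Y box core, each searched on both strands. The B2m stretch is chr2:122147437-122147685 (plus strand), and the H2-K1 stretch is chr17:34000348-34000597 (minus strand).
B2m: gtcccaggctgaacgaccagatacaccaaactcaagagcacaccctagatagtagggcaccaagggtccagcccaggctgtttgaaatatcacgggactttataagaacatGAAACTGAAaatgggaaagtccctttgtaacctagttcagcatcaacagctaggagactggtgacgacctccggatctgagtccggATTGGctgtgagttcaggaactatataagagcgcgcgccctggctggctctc
H2-K1: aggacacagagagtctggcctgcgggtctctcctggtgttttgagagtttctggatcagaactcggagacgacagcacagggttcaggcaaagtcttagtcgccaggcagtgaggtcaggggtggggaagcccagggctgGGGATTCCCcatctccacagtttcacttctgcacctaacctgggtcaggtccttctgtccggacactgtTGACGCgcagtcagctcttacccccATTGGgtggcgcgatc
B2m held the interferon core 139 bases and a Y box core 53 bases before the start site. H2-K1 held the NF-kappaB site at 110, the X2 core at 41 and a Y box core at 16 bases. Another Y box core of H2-K1 lay 8 bases after the start, outside the stretch shown. The search covered 250 bases before and 50 bases after the start, and the latter are not printed. Of all 32851 promoters of the table, in the same windows, 0.353% held the NF-kappaB site, 7.40% the X2 core, 8.56% the interferon core and 37.4% the Y box core.

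H2-D1 carried the same NF-kappaB site and X2 core as H2-K1, at 170 and 101 bases. Both are shown here as 30-base stretches, chr17:35262914-35262943 and chr17:35262981-35263010 (plus strand). Y box cores of H2-D1 at 76 and 53 bases are not shown. H2-T23 is shown by its interferon core at 123 bases, chr17:36032805-36032834 (minus strand), and its Y box core at 52 bases is not shown.
H2-D1, NF-kappaB site: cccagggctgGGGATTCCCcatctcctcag
H2-D1, X2 core: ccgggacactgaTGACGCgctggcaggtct
H2-T23, interferon core: tcctactgctTTCTCTTTCataaagacaca
When the H2-K1 and H2-D1 stretches were lined up on the NF-kappaB match without gaps, 166 of 190 bases (87.4%) were identical. Tap1 had a Y box core and none of the other 3 motifs. Psmb9, an immunoproteasome subunit gene, starts on the opposite strand of the same window, and the stretch between both start sites holds that single core, which is the Psmb9 match at 8 bases (chr17:34187322-34187351, plus strand).
Tap1 and Psmb9, shared Y box core: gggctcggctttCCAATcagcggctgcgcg
Tapbp had 2 Y box cores, the nearer at 165 bases. The RefSeq start sites of H2-D1, H2-T23 and Tapbp lie downstream of the outermost GENCODE starts given above, so the windows of H2-D1 and Tapbp and part of that of H2-T23 are inside the gene spans, and distances are counted from the RefSeq start. The GENCODE model of Psmb9 likewise reaches to chr17:34187764, past the Tap1 start. The stretches before the Tap1 and Psmb9 starts lie wholly in annotated exons. The letters describe these windows and do not show binding.

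B2m, the shared light chain, was read in every one of the 172 cells and was at its highest level in the P2+ CMPs. Its pooled level in MEPs was 211.04 CPM (95% interval 206 to 216.2) in P2- and 330.6 CPM (324.3 to 336.995) in P2+ cells, and in CMPs it was 503 CPM (492 to 513) and 648 CPM (640 to 657). Over single MEPs the lowest, median and highest values were 6.46, 209.4 and 726 CPM in P2- and 8.55, 275.7 and 742 CPM in P2+ cells. Over single CMPs they were 58.0, 468 and 1098 CPM and 164, 621 and 1133 CPM. The pooled intervals did not overlap, while the cells of all populations did. P2+ over P2- was 0.65 in MEPs (95% interval 0.60 to 0.69) and 0.37 in CMPs (0.33 to 0.40) on the log2 scale. CMPs over MEPs was 1.25 (1.21 to 1.30) among P2- cells and 0.97 (0.94 to 1.01) among P2+ cells.

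**Figure D1:**
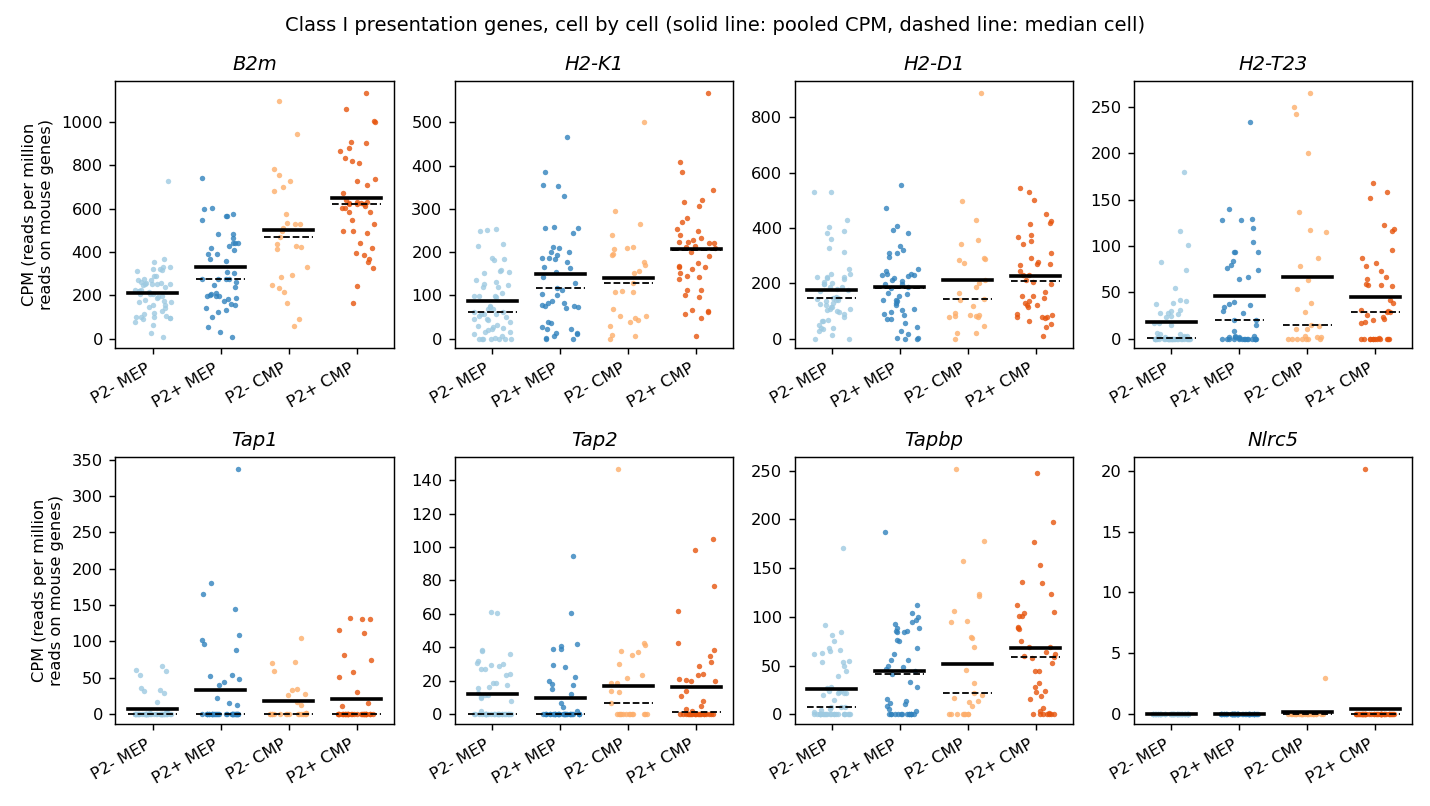
CPM of the 8 genes in each cell (points) of the 4 populations, on a linear axis that differs between panels, with the pooled CPM as a solid line and the median cell as a dashed line. B2m, H2-K1 and H2-D1 were read in nearly all cells, the median Tap1 value was 0 in each population, and Nlrc5 was read in 2 cells.

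The heavy chains did not follow B2m alike. H2-K1, a classical heavy chain, was at 85.8 CPM (82.5 to 89.1) in P2- and 150 CPM (145 to 154) in P2+ cells of the MEPs, and at 140 CPM (134 to 145) and 207.8 CPM (203 to 212.5) in the CMPs. Median cells were at 61.5, 117, 128 and 205 CPM, and the highest at 252.6, 466, 502 and 567 CPM. The levels of P2- CMPs and P2+ MEPs were neighbours in this order, with intervals that nearly met. H2-K1 was higher in P2+ cells by 0.80 (0.73 to 0.87) in MEPs and by 0.57 (0.51 to 0.64) in CMPs on the log2 scale. CMPs over MEPs was 0.70 (0.62 to 0.78) among P2- and 0.47 (0.42 to 0.53) among P2+ cells.

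H2-D1, the other classical heavy chain, had the narrowest fold range of pooled levels among the 7 genes read in many cells, its highest level being 1.28 times its lowest. It was at 177 CPM (173 to 182) in P2- and 186 CPM (181 to 190) in P2+ cells of the MEPs, and at 210.7 CPM (204 to 217.4) and 226.95 CPM (222.08 to 231.9) in the CMPs. The median cells, at 147, 183, 144 and 207.7 CPM, put the P2- CMPs lowest, and 1 P2- CMP of 887 CPM gave 18.2% of that population's H2-D1 reads. The log2 ratios were 0.07 (0.01 to 0.12) and 0.11 (0.05 to 0.16) for P2+ over P2- in MEPs and CMPs, and 0.25 (0.19 to 0.31) and 0.29 (0.24 to 0.34) for CMPs over MEPs among P2- and P2+ cells. Without the cell of highest CPM in each population the value for P2- CMPs over P2- MEPs was 0.07, and with ERCC reads as the denominator it was -0.27 and that for P2+ over P2- MEPs was -0.55.

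To compare genes, levels were divided by the merged length of all annotated exons, 860, 2938 and 2579 bases for B2m, H2-K1 and H2-D1. The lengths of the transcripts expressed were not determined, and bases overlapped by other genes stayed in the divisor. Comparisons between genes are therefore approximate. B2m was at 245.4, 384, 584 and 754 CPM per kb. H2-K1 was at 29.2, 50.9, 47.5 and 70.7 CPM per kb, and H2-D1 at 68.8, 72.0, 81.7 and 88.0. B2m was thus 2.51, 3.13, 4.52 and 4.75 times the sum of both heavy chains. H2-K1 was 0.425, 0.707, 0.581 and 0.804 of H2-D1. More H2-K1 than H2-D1 per kb was found in 10 of 56 and 14 of 47 single MEPs and in 10 of 27 and 15 of 42 single CMPs, with exact binomial intervals (Clopper-Pearson) of 8.91 to 30.4%, 17.3 to 44.9%, 19.4 to 57.6% and 21.6 to 51.97%. H2-D1 was the higher heavy chain in the pool of each population.

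H2-T23 encodes Qa-1, a nonclassical heavy chain that presents class I leader peptides. It had opposite signs in the 2 compartments. Its pooled level was 17.4 CPM (15.9 to 18.9) and 45.7 CPM (43.4 to 48.1) in MEPs without and with hCD4, and 66.05 CPM (62.4 to 69.9) and 44.8 CPM (42.7 to 47.1) in the CMPs. P2+ CMPs and P2+ MEPs differed by -0.03 (-0.13 to 0.08) on the log2 scale, an interval that held 0. Median cells were at 0.592, 19.9, 14.9 and 29.1 CPM, and the highest at 180, 234.2, 265.02 and 168. P2+ over P2- was 1.39 (1.25 to 1.54) in MEPs and -0.56 (-0.67 to -0.45) in CMPs on the log2 scale, and CMPs over MEPs was 1.93 (1.78 to 2.08) among P2- cells. In the CMPs the median cell ran the other way from the pooled level. Thinned to 100000 reads per cell, 28 of 42 P2+ CMPs (66.7%) and 15 of 27 P2- CMPs (55.6%) had a read. Without thinning 30 of 42 (71.4%) and 20 of 27 (74.1%) had one, so the order of the shares changed with depth and none is read from it. Without the 1 P2- CMP that held the Ifit1 reads, an interferon-stimulated gene, the CMP ratio was -0.31 on the log2 scale.

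TAP is a pair of Tap1 and Tap2, and their levels did not run in parallel. Tap1 was at 7.68 CPM (6.73 to 8.73) in P2- and 33.4 CPM (31.4 to 35.5) in P2+ cells of the MEPs, and at 18.3 CPM (16.4 to 20.4) and 21.3 CPM (19.9 to 22.9) in the CMPs. The median cell was at 0 in all 4 populations and the highest at 65.6, 337.003, 105 and 132 CPM, so a minority of cells carried the reads. P2+ over P2- was 2.12 (1.92 to 2.33) in MEPs and 0.22 (0.03 to 0.41) in CMPs on the log2 scale. P2- CMPs were above P2- MEPs by 1.26 (1.01 to 1.502), and P2+ CMPs stood at -0.65 (-0.78 to -0.51) against P2+ MEPs. The MEP value stayed between 2.07 and 2.21 in all settings except ERCC reads as the denominator, which gave 1.505.

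Tap2, the partner, was at 12.2 CPM (10.98 to 13.5) in P2- and 9.91 CPM (8.85 to 11.1) in P2+ cells of the MEPs, and at 17.2 CPM (15.3 to 19.2) and 16.5 CPM (15.2 to 17.9) in the CMPs. Median cells were at 0, 0, 6.71 and 1.07 CPM, and the highest at 61.1, 94.5, 147 and 105. P2+ over P2- was -0.30 (-0.52 to -0.08) in MEPs and -0.06 (-0.26 to 0.14) in CMPs on the log2 scale, and the latter interval held 0. CMPs over MEPs was 0.50 (0.27 to 0.72) among P2- cells, which became -0.0189 with ERCC reads as the denominator, and 0.74 (0.54 to 0.94) among P2+ cells. Per kb, Tap1 was 0.435 of Tap2 in P2- MEPs, 2.33 times in P2+ MEPs, and 0.736 and 0.893 of it in P2- and P2+ CMPs. On this scale P2+ MEPs were the 1 population with more Tap1 than Tap2 in the pool. By CPM Tap1 was also above Tap2 in P2- CMPs, at 18.3 and 17.2 with overlapping intervals, and in P2+ CMPs, at 21.3 and 16.5. The order in the CMPs thus depends on the exon lengths used as divisors.

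Tapbp, which encodes tapasin, was at 25.7 CPM (23.9 to 27.5) in P2- and 43.9 CPM (41.6 to 46.2) in P2+ cells of the MEPs, and at 52.03 CPM (48.8 to 55.4) and 68.1 CPM (65.5 to 70.9) in the CMPs. Median cells were at 7.09, 41.1, 21.5 and 58.8 CPM, so that the median P2- CMP was below the median P2+ MEP while the pooled levels stood the other way. P2+ over P2- was 0.77 (0.65 to 0.90) in MEPs and 0.39 (0.28 to 0.50) in CMPs, and CMPs over MEPs was 1.02 (0.88 to 1.16) among P2- cells and 0.64 (0.54 to 0.73) among P2+ cells, all on the log2 scale.

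Nlrc5, the transactivator, was nearly unread. It had 0 reads in either group of MEPs, which allows a pooled level of up to 0.121 and 0.117 CPM (exact Poisson), 3 reads in 1 P2- CMP and 16 reads in 1 P2+ CMP. The ratio of P2+ over P2- CMPs from these 2 cells was 2.69-fold, with an interval of -0.38 to 3.85 on the log2 scale that held 0. Classical class I transcripts were read in cells in which Nlrc5 was not detectable at this depth. It was below the minimum of 5 CPM in the mean of the populations and is in none of the counts of genes past 2-fold.

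Of the other 7 genes, all of which passed that minimum, 2 were at least 2-fold higher in P2+ than P2- MEPs, H2-T23 and Tap1, against 11.5% of 9657 genes, and 0 were at least 2-fold lower, against 3.98%. In CMPs 0 of 7 were 2-fold higher in P2+ cells (all genes 5.53%) and 0 were lower (6.45%). Between compartments, 4 of 7 were at least 2-fold higher in P2- CMPs than P2- MEPs, namely B2m, H2-T23, Tap1 and Tapbp, against 18.4% of all genes, and 0 were lower (7.04%). Between P2+ CMPs and P2+ MEPs 0 of 7 were higher (12.7%) and 0 lower (8.07%), with B2m just under the line at 1.96-fold. With ERCC reads as the denominator the counts of higher genes were 1 in place of 2 for P2+ over P2- MEPs, 1 in place of 4 for P2- CMPs over P2- MEPs and 3 in place of 0 for P2+ CMPs over P2+ MEPs, where 6.35, 12.002 and 22.2% of all genes were then higher. The median log2 ratio of the 7 was 0.77, 0.22, 1.02 and 0.47 in the order of P2+ over P2- MEPs, P2+ over P2- CMPs, P2- CMPs over P2- MEPs and P2+ CMPs over P2+ MEPs. A gene could pass the minimum through the population where it was high.

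**Figure D2:**
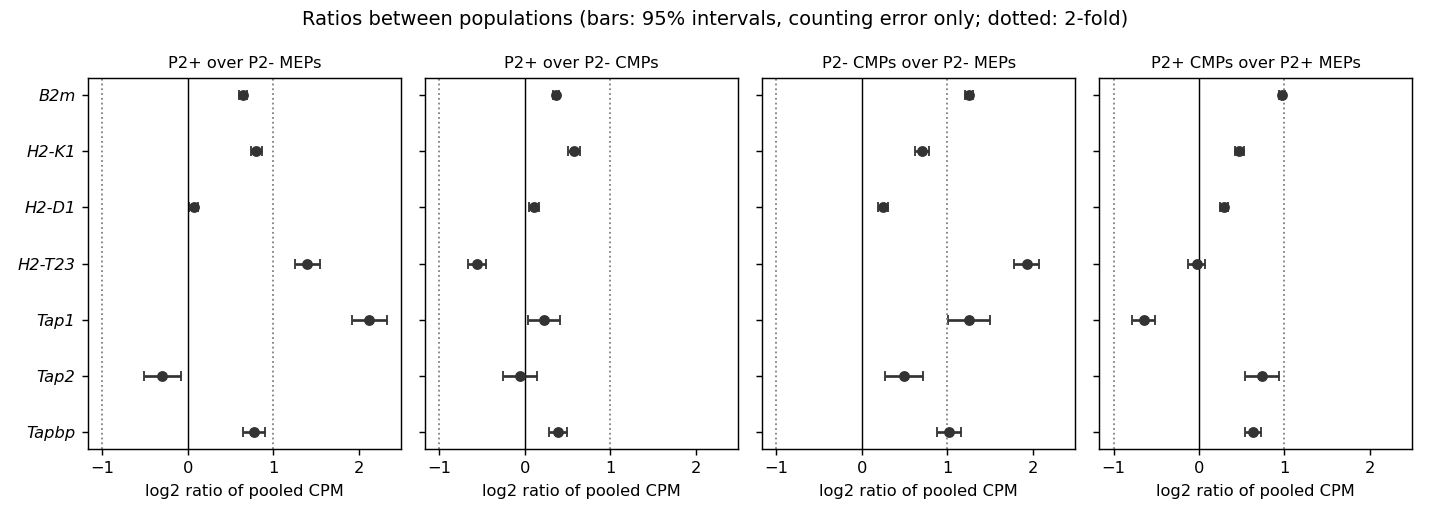
Log2 ratios of pooled CPM for 7 genes in 4 comparisons, with 95% intervals for counting error and dotted lines at 2-fold. Tap1 had the ratio farthest from 0 between P2+ and P2- MEPs, and H2-T23 was on opposite sides of 0 in MEPs and CMPs. H2-D1 lay near 0 in each panel, and its sign in the panels for MEPs and for P2- cells changed with ERCC reads as the denominator.

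Detection at equal depth separated the abundant from the sparse genes. At 100000 reads per cell, H2-K1 was read in 46 of 56 (82.1%, exact binomial interval 69.6 to 91.1%) and 44 of 47 MEPs, and in 26 of 27 and 42 of 42 CMPs. Without thinning it was read in 49, 45, 26 and 42 cells. Tap1 was read in 11 of 56 (19.6%, 10.2 to 32.4%) and 16 of 47 MEPs (34.04%, 20.9 to 49.3%), and in 10 of 27 (37.04%, 19.4 to 57.6%) and 11 of 42 CMPs (26.2%, 13.9 to 42.04%), with overlapping intervals throughout. Tap2 was read in 29.8 to 41.1% of cells. Tapbp was read in 26 of 56 (46.4%) and 29 of 47 MEPs (61.7%), and in 17 of 27 (63.0%) and 31 of 42 CMPs (73.8%).

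Few cells had a read of each step of the pathway. Both Tap1 and Tap2 were read in 7 of 56 (12.5%) and 5 of 47 MEPs (10.6%), and in 5 of 27 (18.5%) and 6 of 42 CMPs (14.3%). B2m, H2-K1 and H2-D1 together were read in 44 of 56, 40 of 47, 25 of 27 and 42 of 42 cells. B2m, a classical heavy chain, Tap1, Tap2 and Tapbp were all read in 5, 3, 4 and 4 cells of the populations. A gene without a read in a cell may have been present below detection. At 100000 reads per cell the median cell had reads of 4 of the 8 genes in P2- MEPs and of 5 in each of the other populations, and without thinning it had reads of 5 in all 4 populations.

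**Figure D3:**
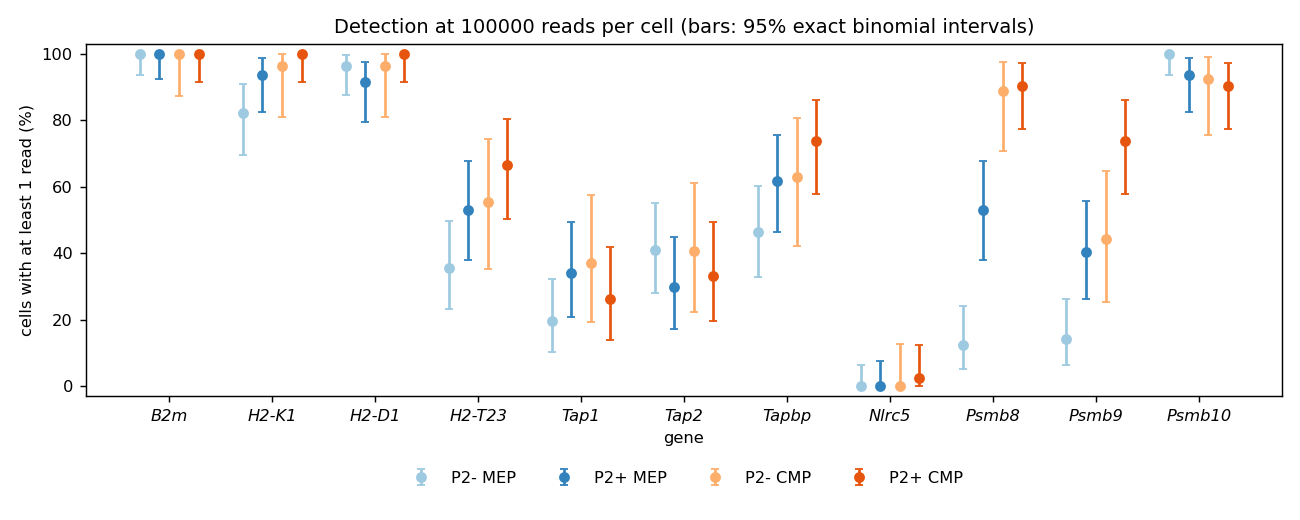
Percent of cells with at least 1 read of each gene after thinning to 100000 reads per cell, with 95% exact binomial intervals, in the 4 populations. B2m was at 100% in each, Tap1 and Tap2 between 19.6 and 41.1%, and the immunoproteasome genes Psmb8 and Psmb9 were lowest in P2- MEPs, at 12.5 and 14.3%.

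The immunoproteasome, whose subunits Psmb8, Psmb9 and Psmb10 replace Psmb5, Psmb6 and Psmb7 and alter the peptides cut, differed by subunit. Psmb8 was at 7.84, 32.8, 83.6 and 91.6 CPM and Psmb9 at 6.50, 28.1, 52.03 and 52.4 CPM. Psmb10 was highest in P2- MEPs and lowest in P2+ CMPs, at 266.7, 168, 168 and 128 CPM. Log2 ratios of P2+ over P2- MEPs were 2.06 (1.86 to 2.27) for Psmb8, 2.11 (1.89 to 2.34) for Psmb9 and -0.67 (-0.72 to -0.62) for Psmb10. In CMPs Psmb8 was at 0.13 (0.04 to 0.22) and Psmb9 at 0.01 (-0.10 to 0.12). The Tap1 and Psmb9 ratios in MEPs, 2.12 and 2.11, were close, but over single cells the 2 genes had a Spearman rho of 0.29, 0.13, -0.17 and -0.28 in the 4 populations, and reads of both were found in 4, 8, 3 and 5 cells. These rhos were over the cells of 1 population each, thinned to the same depth, of sparse counts.

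Per kb, Psmb8 was 0.0205, 0.0977, 0.236 and 0.278 of Psmb5. Psmb9 was 0.00731, 0.0373, 0.0673 and 0.0679 of Psmb6. Psmb10 was 5.42, 5.26, 3.16 and 2.10 times Psmb7. On this scale Psmb8 and Psmb9 stayed below the constitutive partner in each pool and Psmb10 above it. The merged exon lengths that divide the counts were 3381 bases for Psmb8 and 899 for Psmb5. The order is stated for this scale only, and by CPM it can differ. The PA28 activator genes Psme1 and Psme2 were at 192 and 183 CPM in P2- MEPs, and P2+ CMPs had 350.7 and 286.3 CPM. Of 6 genes of the immunoproteasome and PA28 list, 2 were at least 2-fold higher in P2+ than P2- MEPs and 2 in P2- CMPs than P2- MEPs (Psmb8 and Psmb9 in both), 1 in P2+ CMPs than P2+ MEPs (Psmb8) and 0 in P2+ than P2- CMPs, and 0 were 2-fold lower in any comparison. Of all genes 11.5, 18.4, 12.7 and 5.53% were higher in these comparisons. With ERCC reads as the denominator 5 were higher in P2+ CMPs than P2+ MEPs (all genes 22.2%), 2 were lower in P2+ than P2- MEPs (18.1%) and 1 in P2- CMPs than P2- MEPs (19.6%). Of the 3 constitutive subunit genes 0 passed 2-fold in either direction.

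**Figure D4:**
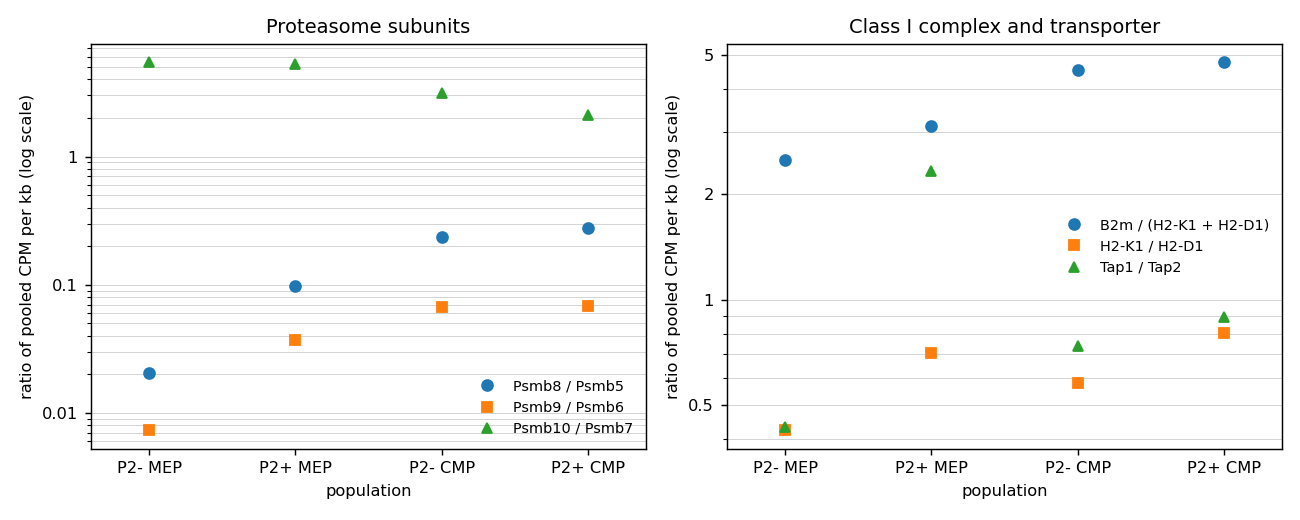
Ratios of pooled CPM per kb on a log axis in the 4 populations, for immunoproteasome over constitutive subunits (left) and for members of the class I complex and of TAP (right). Psmb8 over Psmb5 was 0.0205 in P2- MEPs and 0.278 in P2+ CMPs, B2m over both heavy chains was between 2.51 and 4.75, and Tap1 over Tap2 was above 1 in P2+ MEPs, at 2.33.

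Of 10 partners of the peptide loading complex, 8 stayed within 2-fold in all 4 comparisons, and Tapbpl and Erap1 did not. The chaperones Calr and Canx were between 593 and 740 CPM and between 333.6 and 552 CPM, and Pdia3 between 392 and 566 CPM. Tapbpl was at least 2-fold higher in P2+ than P2- MEPs, where 11.5% of all genes were, and 0 partners were in P2+ than P2- CMPs (5.53%). Both Tapbpl and Erap1 were higher in P2- CMPs over P2- MEPs and in P2+ CMPs over P2+ MEPs, where 18.4% and 12.7% of all genes were. With 10 partners these counts are near the shares of all genes. Erap1, the peptide trimming enzyme of the endoplasmic reticulum, was at 14.5, 16.9, 52.4 and 45.1 CPM, and Tapbpl, the tapasin relative that edits peptides, at 1.18, 2.98, 11.2 and 10.98 CPM. The median log2 ratio of the list was 0.23, -0.13, -0.00478 and -0.01 in the 4 comparisons. Of 7 cytosolic peptidase genes, Thop1 alone passed 2-fold, lower in P2- CMPs than P2- MEPs at -1.002 on the log2 scale, just past the line. Of all genes 7.04% were lower in that comparison.

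Other class I genes were sparse. Of 15 other heavy chain genes 2 passed the CPM minimum, H2-T22 and H2-M3. H2-T22, a neighbour of H2-T23 whose exons are overlapped over 29.4% of their bases by another gene, was at 7.87, 17.1, 17.2 and 8.50 CPM, with P2+ over P2- at 1.12 (0.90 to 1.34) in MEPs and -1.02 (-1.25 to -0.78) in CMPs on the log2 scale, signs that were also those of H2-T23. H2-M3, a heavy chain that presents formylated peptides, was at 0.621, 0.127, 12.9 and 8.61 CPM. The H2-Q genes were each below 1 CPM. The 10 class II genes summed to between 16.8 and 50.9 CPM, most of it from H2-Ab1, at 8.84 to 24.04 CPM, and H2-DMa, at 3.71 to 19.3 CPM. The other 8 were each at 5.23 CPM or less, the level of H2-Ob in P2+ CMPs. Ciita, the class II transactivator, H2-Aa and H2-Eb2 had 0 reads, and Cd74, the class II invariant chain, had reads in 4 P2+ CMPs and in 0 other cells.

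Among 21 regulators of class I transcription, 17 were tested, and 2, 1, 5 and 3 were at least 2-fold higher in the 4 comparisons in the order above while 0, 0, 2 and 1 were lower. Of all genes 11.5, 5.53, 18.4 and 12.7% were higher and 3.98, 6.45, 7.04 and 8.07% lower in these comparisons, so the first 2 counts are near the share of all genes. Irf1, an interferon-induced activator, was at 2.81 and 2.79 CPM in MEPs and at 20.2 and 29.2 CPM in CMPs, 2.84 (2.50 to 3.20) and 3.39 (3.07 to 3.72) higher on the log2 scale in CMPs than in MEPs. Irf2 was at 14.2, 16.5, 32.2 and 51.4 CPM. Irf8, an interferon regulatory factor of the myeloid lineage, had 0 reads in P2- MEPs and was at 5.57, 19.03 and 23.7 CPM in the others. Nfkb1, an NF-kappaB subunit, was at 48.03, 89.4, 130 and 108 CPM. Rfxap, a subunit of the factor that binds the X box, went the other way, at 36.4, 21.4, 13.96 and 11.6 CPM.

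Of 31 interferon-stimulated genes 18 were tested, of which 6 were at least 2-fold higher and 1 lower in P2+ than P2- MEPs, 0 higher and 2 lower in P2+ than P2- CMPs, 11 higher and 1 lower in P2- CMPs than P2- MEPs, and 6 higher and 1 lower in P2+ CMPs than P2+ MEPs. The shares of all genes, higher and lower, were 11.5 and 3.98%, 5.53 and 6.45%, 18.4 and 7.04%, and 12.7 and 8.07% in that order. Ifit1 passed the minimum through a single P2- CMP, described in the next paragraph, and without that cell the count was 1 higher (Igtp) and 1 lower in P2+ than P2- CMPs and again 11 higher in P2- CMPs than P2- MEPs, with Ly6e in place of Ifit1. Ifitm3, a membrane protein that blocks virus entry, was at 2.45, 34.6, 321.4 and 241.1 CPM, and at 239.1 CPM in P2- CMPs without the same cell. Igtp, an interferon-inducible GTPase, was at 0.686, 0.0633, 17.6 and 16.2 CPM, and at 7.74 CPM in P2- CMPs without it. The list's median log2 ratio was 0.60, -0.12, 1.61 and 0.62, beside 0.77, 0.22, 1.02 and 0.47 for the 7 class I genes, and all genes tested had medians of 0.04, -0.03, 0.07 and -0.01.

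A single P2- CMP stood apart from its population in interferon-stimulated genes, with 23.1% of the reads of the list in the P2- CMPs. It held all 396 reads of Ifit1 and all reads of Mx1 in the data set, 99.1% of the Irf7 reads of the P2- CMPs, and reads of 22 of the 31 interferon-stimulated genes, against a median of 7 per P2- CMP. Its summed level over the list was 4149 CPM, where the next cell of the population had 1652 and the median cell 640. In this cell B2m was at 1098 CPM and Psmb8 at 302.02 CPM, each the highest of 27, H2-T23 at 242.99 CPM was the third and H2-K1 at 211.5 CPM and H2-D1 at 343.3 CPM each ranked 5. It also held the 3 Nlrc5 reads of the P2- CMPs. Tap1, Tap2 and Irf1 had 0 reads in it, at 1016501 reads on mouse genes. Without the cell, P2- CMPs over P2- MEPs was 1.15 for B2m and 1.68 for H2-T23, in place of 1.25 and 1.93, and the counts of the 7 genes past 2-fold were the same in each comparison.

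Within populations the relations among the 7 genes read in many cells were weak. Over their 21 pairs in 4 populations the Spearman rho over cells was between -0.30 and 0.37, with a median of 0.03. The rho of B2m with H2-K1 was 0.11, 0.20, -0.14 and 0.07, and that of H2-K1 with H2-D1 0.14, 0.15, 0.05 and 0.34. Tap1 with Tap2 gave 0.23, 0.10, 0.33 and 0.35. All these points share a pool and are sparse counts thinned to the same depth, so the values are descriptions. Among 4256 genes read in at least 50% of the cells of every population, the genes most like B2m by the mean of the 4 rhos were Cox7a2l, Nrros, Gm11223, Arhgdib and Stmn1, at 0.27, 0.27, 0.27, 0.27 and 0.26, and those most like H2-K1 were Pqbp1, Paxip1, Gpx1, Hells and Noc2l, at 0.29, 0.28, 0.26, 0.25 and 0.25. The lowest means among these genes were farther from 0, at -0.34 for B2m and -0.35 for H2-K1, and single rhos of the named genes differed in sign, as for Nrros with B2m at -0.22 over P2- MEPs and Pqbp1 with H2-K1 at -0.03. H2-D1 was at rank 82 for H2-K1, and H2-K1 at rank 811 for B2m.

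The populations also differed in lineage genes. From P2- MEPs to P2+ CMPs, the summed level of 9 erythroid markers was 2117, 1200, 629 and 345.2 CPM. That of 8 stem and multipotent markers was 310, 466, 947 and 1211 CPM. Products of 3 of these genes, Cd34, Kit and Slamf1 (CD150), were used in the sort, and the other 5 summed to 8.63, 93.7, 265.7 and 341.3 CPM. The summed level of 8 granulocyte and monocyte markers was 16.3, 66.6, 404 and 653 CPM, and that of 8 megakaryocytic markers 53.9, 478, 547 and 618 CPM, or 20.3, 374.2, 515 and 579 CPM without Itga2b (CD41). Of the marker lists for other cells, the sum of 8 endothelial markers had the same order, at 8.17, 15.4, 106 and 141 CPM, with 4, 4, 3 and 2 of them at 0 reads and most of the sum in CMPs from Emcn and Tie1. The sum of 10 lymphoid markers did so too, at 0.0653, 21.9, 79.6 and 84.4 CPM, with 8, 8, 7 and 9 at 0 reads and nearly all of the level outside P2- MEPs from Cd79b. The 7 hepatocyte markers, at 11.99, 10.4, 24.9 and 13.6 CPM, the 6 dendritic markers, at 10.9, 24.04, 8.84 and 18.7 CPM, and the macrophage markers did not have this order. By pooled CPM, B2m, H2-D1 and Tapbp were in the order of the stem and multipotent sum, and H2-K1, H2-T23, Tap1 and Tap2 were not. By the median cell, H2-D1 and Tapbp were not in that order either, and H2-D1 passed 2-fold in no comparison. H2-K1 was higher in P2+ MEPs than in P2- CMPs, H2-T23 was highest in P2- CMPs, Tap1 was highest in P2+ MEPs and Tap2 lowest in them. The part of lineage composition in the class I differences was not tested.

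Within populations, B2m had a rho of 0.62 and 0.40 with the summed stem and multipotent markers over the 27 P2- and 42 P2+ CMPs, and of -0.11 and 0.16 over the P2- and P2+ MEPs. Without the 3 genes of the sort the rho was 0.48 and 0.20 over the CMPs and 0.09 and 0.13 over the MEPs. With the granulocyte and monocyte markers its rho was 0.30 and 0.28 over the CMPs, with the megakaryocytic markers 0.35 and -0.30, and with the erythroid markers -0.43 and -0.03. For the other class I genes the rhos with the stem and multipotent sum were between -0.29 and 0.31.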

How the data were processed

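Single cells of pooled E14.5 livers were sequenced by a modified Smart-Seq2 protocol without molecular identifiers, so the intervals of levels and ratios cover the counting error of reads only. The intervals of shares are over numbers of cells and cover the sampling of cells from the pool. The authors trimmed reads with Trimmomatic (0.36), aligned them with STAR (2.4.2a) to GRCm38 with ERCC sequences and counted them with HTSeq (0.6.1p1) on GENCODE M12 exons, unstranded, and deposited raw counts per gene and cell. The deposited alignment table gives unmapped reads as a percent of each cell's reads. Tally entries that name no gene stayed out of totals: ambiguous reads were 25.6% and reads on no feature 7.40% of uniquely mapped reads, and 64313689 alignments were not unique.

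Cells with under 250000 reads, over 25% unmapped reads or over 15% ERCC were dropped as in the study's methods, leaving 172 of 175. No pair of cells had identical counts (0 pairs). The depth behind each value is the summed reads on mouse genes, 30606262 and 31573710 for the MEPs without and with hCD4 and 18334696 and 36351033 for the CMPs. Counts were summed per population, and ratios taken without a pseudocount, with 3 reads set for a population at 0 over that population. In counts under other settings a 0 was left as it is. Intervals at 95% are exact Poisson for levels, exact conditional binomial for ratios and Clopper-Pearson for shares. A gene was tested for a 2-fold difference at a mean pooled CPM of at least 5. Shares and rhos used cells thinned to 100000 reads. Positions and lengths are from GENCODE vM21, a later release of the same build. Python 3.11.15, numpy 2.4.6, pandas 2.3.3, scipy 1.17.1, DESeq2 1.42.0 and edgeR 4.0.16 were used, the last 2 for alternative scaling factors only. The code for the ratios was run on simulated Poisson counts. These follow the model of the intervals and leave out the spread between cells, so they do not test the intervals on these data. The genes named are the 8 members, list genes past 2-fold or of highest level, and the 5 genes most like B2m and H2-K1. Genes of the interferon-rich cell, H2-DMa, H2-Ob, H2-Eb2, the H2-Q group, Ly6e, Ciita, Cd74, Cd79b, Emcn, Tie1 and H2-Aa were chosen for naming once their values had been seen. The members and lists were chosen with earlier results of these data known.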

Additional observations from a re-analysis of the deposited data

Results flagged for a closer look

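H2-T23, the gene of the nonclassical heavy chain Qa-1, was higher in P2+ than P2- MEPs, at a log2 ratio of 1.39, and lower in P2+ than P2- CMPs, at -0.56. It stood out because the sign differed between the compartments. The difference was not tested, since each population is 1 sample. With 1 P2- CMP rich in interferon-stimulated transcripts left out, the CMP value was -0.31, and over all settings it lay between -0.61 and -0.23.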

How the results depend on the processing

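Of 29 log2 ratios of the class I genes, 24 had the same sign under every one of 9 alternative settings that gave a value and 5 did not. Nlrc5, in P2+ over P2- CMPs, had no value in the 2 settings that leave out its cell. Without the ERCC setting 27 kept their sign, and the other 2, H2-T23 in P2+ CMPs over P2+ MEPs and Tap2 in P2+ over P2- CMPs, were at -0.03 and -0.06. With ERCC reads as the denominator the median of all genes shifted by -0.62 in P2+ over P2- MEPs, 0.33 in P2+ over P2- CMPs, -0.53 in P2- CMPs over P2- MEPs and 0.43 in P2+ CMPs over P2+ MEPs. H2-D1 then read -0.55 in P2+ over P2- MEPs, and H2-D1 and Tap2 read -0.27 and -0.0189 in P2- CMPs over P2- MEPs. The genes at least 2-fold higher numbered 1 for P2+ over P2- MEPs, 1 for P2- CMPs over P2- MEPs and 3 for P2+ CMPs over P2+ MEPs, in place of 2, 4 and 0. For the last comparison equal weight for every cell, edgeR TMM factors and a denominator without mitochondrial genes and Rn18s-rs5 each gave 1. The cause was not tested. The other counts of the class I genes past 2-fold were within 1.5 times the reported ones. Of 40 counts for 5 lists of related genes, 16 moved by more than that with ERCC reads, 6 without the cell of highest CPM, 5 with equal weight, 3 each with TMM factors and without mitochondrial genes, 2 without the Ifit1 cell, 1 each with DESeq2 size factors and without the cell of conflicting label, and 0 with every deposited cell. The shares of all genes past 2-fold, between 3.98 and 18.4%, were between 7.35 and 24.4% at a minimum of 1 CPM and between 7.65 and 19.8% with no minimum beyond 1 read in each population, and the counts of class I genes were the same. The setting without the P2- CMP that held the Ifit1 reads and the marker sums without genes of the sort were chosen after seeing the data. No paired analysis was possible because the numbers of cells only name them and each population is 1 sample. Depth limits what can be said of Nlrc5, of which 19 reads were found in all. Tap1 was read in 16, 16 and 16 P2+ MEPs and in 11, 12 and 12 P2+ CMPs at 100000, 200000 and all reads per cell, and Tap2 in 14, 16 and 17 and in 14, 21 and 21.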
